A study of Mus musculus with 20 samples.

Results

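The genes described here are the NRF2 transcription factor Nfe2l2, its inhibitor Keap1 and 7 enzymes of antioxidant defence whose genes NRF2 is known to activate: Nqo1, Hmox1, Gclc, Gclm, Txnrd1, Srxn1 and Gsr. They were taken by symbol from a table of RNA levels in MC38 tumours, and all 9 were found among its 23402 rows and passed the filter on low values. MC38 is a mouse colon adenocarcinoma line, grown here under the skin of mice. The treated tumours received ATBx around the tumour (P.T.ATBx, 10 libraries) and the others received vehicle (Control, 10 libraries), and every library is bulk tumour RNA. The labels do not spell out ATBx. The sources used here do not give the agents, dose, schedule, mouse strain or age. They do not say that the libraries of a group are separate animals either, and the p-values therefore refer to the spread among libraries, part of which may be technical. The study's title links tumour microbes to interferon signalling. The values below ask whether the antioxidant programme of the tumours differed after ATBx.

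NRF2 is held low in resting cells because KEAP1 binds it and passes it to a CUL3 ubiquitin ligase for degradation by the proteasome. Oxidants and electrophiles modify cysteines of KEAP1, NRF2 then accumulates, pairs with a small MAF protein and binds antioxidant response elements (AREs) beside its target genes. Most of this control acts on the NRF2 protein, so the RNA of Nfe2l2 itself is not a measure of pathway activity, and the RNA of its targets is the usual readout. In tumours the targets are expressed by cancer cells and by infiltrating myeloid cells, and in a bulk sample fewer cells of a type and less RNA per cell cannot be told apart.

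NRF2 reaches its targets through the ARE, so promoters that hold its core sequence are printed here. RefSeq windows on GRCm38.p6, from 250 bases before to 50 bases after a transcription start, were matched for 6 of the 9 genes, as 8 windows. Those not matched were Hmox1, Gclc and Gsr. The ARE core was searched on both strands as TGACNNNGC, which can also match where an AP-1 site (TGACTCA) is followed by GC. It was found in 4 of the 8 windows, 1 each for Nfe2l2, Srxn1, Gclm and Txnrd1, and in neither the Keap1 nor the Nqo1 window, against 12.4% of 32851 windows of all genes. The other windows of Txnrd1 held no match. Bases outside the windows were not searched, so a gene without a match here may hold the core farther away. The 4 windows are printed 5′ to 3′ on the strand of the gene, with the match in capitals. They are chr2:75704614-75704913 (minus strand) for Nfe2l2, chr2:152105274-152105573 (plus strand) for Srxn1, chr3:122245307-122245606 (plus strand) for Gclm and chr10:82858956-82859255 (plus strand) for Txnrd1.
Nfe2l2: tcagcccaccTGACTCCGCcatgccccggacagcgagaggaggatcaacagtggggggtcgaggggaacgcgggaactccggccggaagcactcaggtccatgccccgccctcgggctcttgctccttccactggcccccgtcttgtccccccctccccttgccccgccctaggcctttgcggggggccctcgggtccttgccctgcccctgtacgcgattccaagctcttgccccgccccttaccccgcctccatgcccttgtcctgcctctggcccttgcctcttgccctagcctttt
Srxn1: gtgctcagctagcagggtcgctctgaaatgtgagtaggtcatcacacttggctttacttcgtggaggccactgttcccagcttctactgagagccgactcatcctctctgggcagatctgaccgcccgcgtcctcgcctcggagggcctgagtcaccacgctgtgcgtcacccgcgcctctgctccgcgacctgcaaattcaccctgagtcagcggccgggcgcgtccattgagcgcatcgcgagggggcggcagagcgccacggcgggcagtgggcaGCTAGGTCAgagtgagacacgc
Gclm: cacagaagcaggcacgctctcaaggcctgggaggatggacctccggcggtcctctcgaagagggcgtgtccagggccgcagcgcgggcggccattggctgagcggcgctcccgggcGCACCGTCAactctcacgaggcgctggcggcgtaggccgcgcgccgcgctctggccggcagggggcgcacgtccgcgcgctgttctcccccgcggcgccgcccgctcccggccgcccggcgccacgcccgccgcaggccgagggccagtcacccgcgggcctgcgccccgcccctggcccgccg
Txnrd1: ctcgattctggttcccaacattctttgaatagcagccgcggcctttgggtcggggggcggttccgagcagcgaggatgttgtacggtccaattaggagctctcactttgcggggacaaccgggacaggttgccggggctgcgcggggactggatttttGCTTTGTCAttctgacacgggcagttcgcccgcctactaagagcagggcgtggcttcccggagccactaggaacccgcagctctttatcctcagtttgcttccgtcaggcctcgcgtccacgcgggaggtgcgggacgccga
The match lies at positions -240 to -232 from the start for Nfe2l2, -134 to -126 for Gclm, -92 to -84 for Txnrd1 and 29 to 37 for Srxn1. The Srxn1 window also holds the AP-1 sequence TGAGTCA at -102 to -96 and at -45 to -39, and an AP-1 sequence (TGACTCA or TGAGTCA) was found in 5.20% of all windows. The site at -45 is followed by GC and reads TGAGTCAGC. The pattern TGACNNNGC does not cover those letters, so the search can miss sites of that form. These matches describe the letters of the windows and say nothing of whether a factor was bound.

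None of the 9 genes differed between the groups past the adjusted threshold. Of the 12788 rows tested, 108 (0.845%) passed at an adjusted p under 0.05 in either direction (limma, Benjamini-Hochberg), 59 of them higher (0.461%) and 49 lower (0.383%) after P.T.ATBx, and 0 of 9 is near that share. With each library rescaled to 1 sum (TPM scaling) the split was 20 higher and 29 lower. At an unadjusted p under 0.05 there were also 0 of 9, against 13.6% of all rows. The 9 differences had a median absolute size of 0.05 on the log2(FPKM + 1) scale, and all rows tested had 0.05. Nfe2l2, Nqo1, Gclc and Gclm had positive values and Keap1, Hmox1, Txnrd1, Srxn1 and Gsr negative ones. The count stayed at 0 in each of the 33 other fits run (other scalings, filters, covariates and left-out libraries). No member's groups lay fully apart, as they did in 17 of all rows tested (0.133%).

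The members spanned a wide range of levels. FPKM is scaled to gene length, so levels of different genes can be set side by side. Over all 20 libraries the mean level was 75.8 ± 4.12 FPKM for Txnrd1, 49.7 ± 2.91 for Gsr, 48.9 ± 3.29 for Nfe2l2, 27.1 ± 11.2 for Hmox1, 24.5 ± 1.33 for Srxn1, 17.9 ± 1.53 for Keap1, 10.3 ± 0.738 for Gclc, 8.20 ± 0.805 for Gclm and 1.99 ± 0.462 for Nqo1 (SD, n = 20). Txnrd1 was thus above 91.4% of the tested rows and Nqo1 above 14.1%. Neighbours in this order kept their order in 20 of 20 libraries, except Gsr over Nfe2l2 (9 of 20), Nfe2l2 over Hmox1 (18 of 20) and Hmox1 over Srxn1 (8 of 20). Hmox1 lay above Srxn1 in 1 of 10 P.T.ATBx libraries and in 7 of 10 Control libraries.

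**Figure D1:**
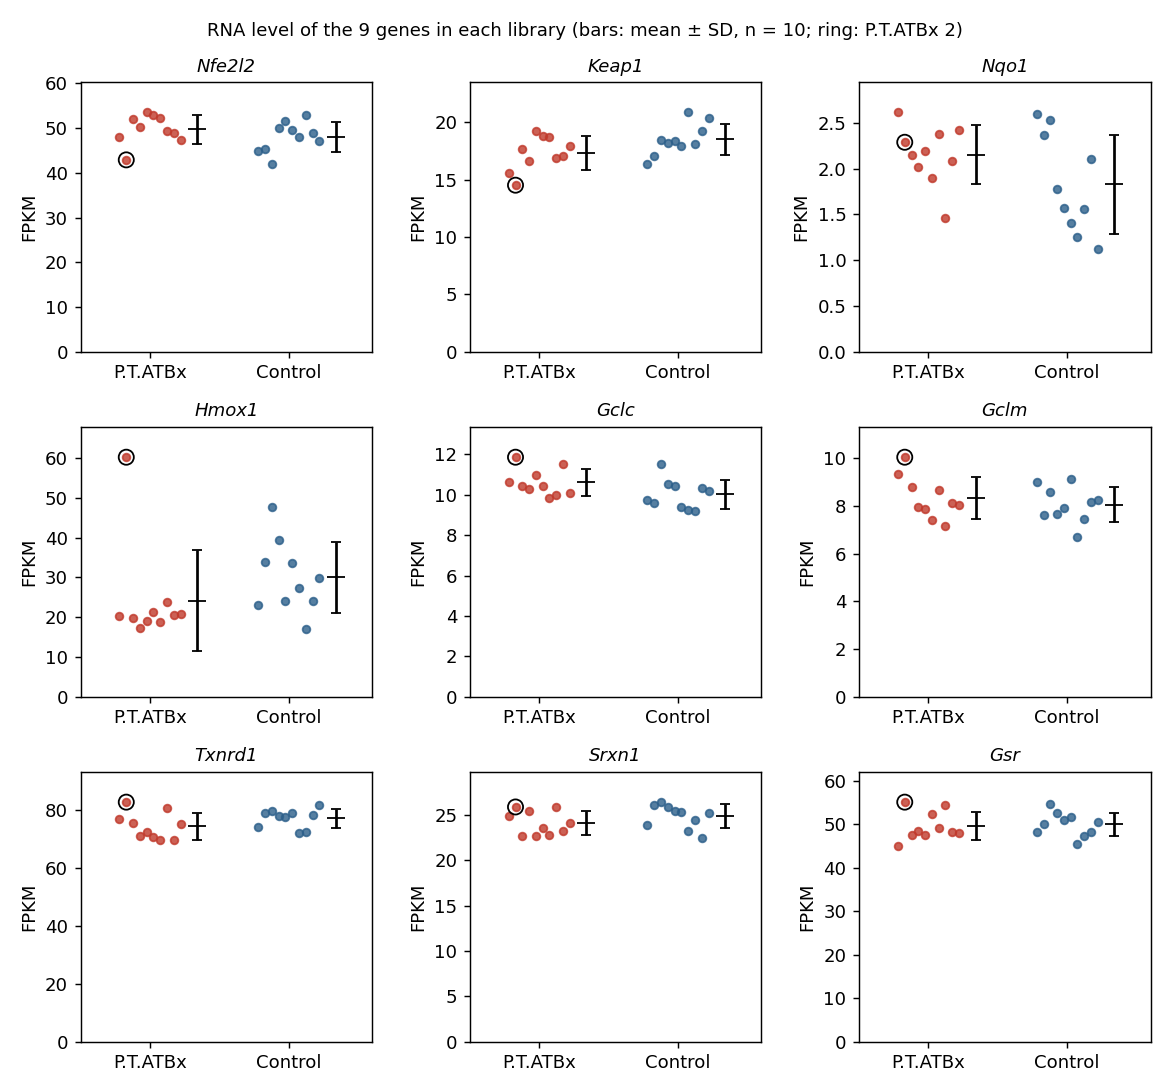
FPKM of each gene (vertical axes, from 0) in the 10 P.T.ATBx libraries and the 10 Control libraries, 1 point per library in the order of replicate number, with mean ± SD beside them. The ring marks P.T.ATBx 2, which had 60.3 FPKM of Hmox1 where the other P.T.ATBx libraries had at most 23.9, and the groups overlap in every panel.

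The pathway's regulators showed small differences. Nfe2l2 (Entrez 18024, chromosome 2, 75675513 to 75704663, GRCm38) encodes the transcription factor NRF2. It ran from 42.9 through a median of 49.9 to 53.6 FPKM in P.T.ATBx tumours, and from 42.0 through 48.4 to 52.9 FPKM in Control tumours. The groups overlapped almost wholly, with 7 of the 10 P.T.ATBx values over the Control median. Its difference was 0.05 on the log2 scale (SE 0.04, 95% interval -0.04 to 0.14, adjusted p = 0.668, limma). Without Control 3, where Nfe2l2 was lowest, the difference was 0.03.

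Keap1 (Entrez 50868, chromosome 9, 21229730 to 21239332) encodes the sensor and inhibitor of NRF2. It ran from 14.5 through a median of 17.4 to 19.3 FPKM in P.T.ATBx tumours, and from 16.4 through 18.3 to 20.9 FPKM in Control tumours. The 2 lowest libraries of all were P.T.ATBx 2 and P.T.ATBx 1, and the Control median exceeded 7 of the 10 P.T.ATBx values. The difference was -0.09 (SE 0.05, 95% interval -0.20 to 0.01, adjusted p = 0.419, limma). The ratio of Nfe2l2 to Keap1 within a library was 2.88 ± 0.132 in P.T.ATBx and 2.60 ± 0.237 in Control (SD, n = 10 each), given as a description with no test.

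Glutathione synthesis was represented by Gclc (Entrez 14629, chromosome 9, 77754535 to 77794489) and Gclm (Entrez 14630, chromosome 3, 122245487 to 122267215), the catalytic and modifier subunits of glutamate-cysteine ligase, the rate-limiting enzyme. Gclc ran from 9.86 through a median of 10.4 to 11.9 FPKM in P.T.ATBx tumours, and from 9.19 through 9.98 to 11.5 FPKM in Control tumours. It exceeded the Control median in 9 of 10 P.T.ATBx libraries, by a small margin. Its difference was 0.08 (SE 0.04, 95% interval -0.01 to 0.16, adjusted p = 0.442, limma). Gclm ran from 7.18 through 8.09 to 10.1 FPKM in P.T.ATBx tumours, and from 6.71 through 8.05 to 9.15 FPKM in Control tumours. It was evenly split around the Control median, with 5 P.T.ATBx libraries above and 5 below, and its difference was 0.04 (SE 0.06, 95% interval -0.07 to 0.16, adjusted p = 0.783, limma). The catalytic subunit exceeded the modifier in every library, with a Gclc to Gclm ratio of 1.28 ± 0.115 in P.T.ATBx and 1.25 ± 0.117 in Control (SD, n = 10 each).

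The enzymes that return oxidised thiols to the reduced state were the most even of the set. Gsr (Entrez 14782, chromosome 8, 33653238 to 33698162), glutathione reductase, ran from 45.0 through a median of 48.3 to 55.1 FPKM in P.T.ATBx tumours, and from 45.5 through 50.3 to 54.6 FPKM in Control tumours. Txnrd1 (Entrez 50493, chromosome 10, 82833951 to 82897724), the cytosolic thioredoxin reductase, ran from 69.5 through 73.8 to 82.8 FPKM in P.T.ATBx tumours, and from 72.2 through 78.2 to 81.7 FPKM in Control tumours. Srxn1 (Entrez 76650, chromosome 2, 152105524 to 152111376), sulfiredoxin, which repairs overoxidised peroxiredoxins, ran from 22.7 through 23.8 to 25.9 FPKM in P.T.ATBx tumours, and from 22.4 through 25.3 to 26.4 FPKM in Control tumours. All 3 overlapped between groups, and the highest library exceeded the lowest of all 20 by 1.22-fold for Gsr, 1.19-fold for Txnrd1 and 1.18-fold for Srxn1. Gsr had a difference of -0.01 (SE 0.04, 95% interval -0.09 to 0.07, adjusted p = 0.928, limma). Txnrd1 had -0.05 (SE 0.04, 95% interval -0.13 to 0.02, adjusted p = 0.583, limma) and Srxn1 -0.04 (SE 0.04, 95% interval -0.12 to 0.03, adjusted p = 0.661, limma). Under the chosen scale these intervals reach from 0.915-fold to 1.02-fold for Txnrd1, from 0.922-fold to 1.02-fold for Srxn1 and from 0.937-fold to 1.05-fold for Gsr.

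Nqo1 (Entrez 18104, chromosome 8, 107388225 to 107403205), the quinone reductase that is the classical NRF2 target, was the lowest member. It ran from 1.46 through a median of 2.17 to 2.61 FPKM in P.T.ATBx tumours, and from 1.12 through 1.67 to 2.60 FPKM in Control tumours. It exceeded the Control median in 9 of 10 P.T.ATBx libraries, but Control 1, Control 2 and Control 3 were as high as the upper P.T.ATBx libraries, and the spread was wider in Control (2.15 ± 0.322 FPKM in P.T.ATBx and 1.83 ± 0.538 in Control, SD, n = 10 each). The difference was 0.17 (SE 0.10, 95% interval -0.03 to 0.37, adjusted p = 0.450, limma), on a scale that understates the change of a gene this low. Across the other fits its adjusted p ran from 0.108 to 0.60 (limma).

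Hmox1 (Entrez 15368, chromosome 8, 75093618 to 75100593), the inducible haem oxygenase that degrades haem to biliverdin, iron and carbon monoxide, had the largest difference of the set and the largest spread. In P.T.ATBx tumours it was at 20.2, 60.3, 19.8, 17.3, 19.0, 21.2, 18.8, 23.9, 20.5 and 20.9 FPKM in replicates 1 to 10. In Control tumours it was at 23.2, 34.0, 47.7, 39.5, 24.1, 33.7, 27.4, 17.1, 24.0 and 29.9 FPKM in replicates 1 to 10. Apart from P.T.ATBx 2, the P.T.ATBx libraries lay within a narrow band below the Control median of 28.6 FPKM, while P.T.ATBx 2 was the highest of all 20. The difference was -0.35 (SE 0.20, 95% interval -0.76 to 0.06, adjusted p = 0.463, limma), and the Control median exceeded 9 of the 10 P.T.ATBx values. Without P.T.ATBx 2 the difference was -0.50, the farthest from 0 of any leave-one-out fit, and it still missed the threshold (adjusted p = 0.0768, limma). The 9 other P.T.ATBx libraries averaged 20.2 ± 1.85 FPKM.

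**Figure D2:**
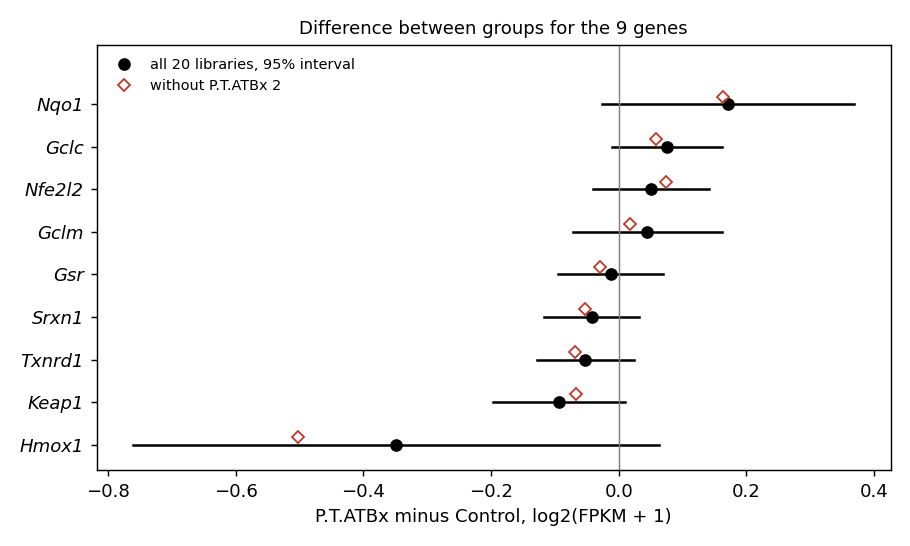
Difference in log2(FPKM + 1), P.T.ATBx less Control, for each gene, in order of size, as filled points with 95% intervals from all 20 libraries and as open diamonds without P.T.ATBx 2. Every interval includes 0, and Hmox1 stands at -0.50 without P.T.ATBx 2 and at -0.35 with it.

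The high Hmox1 of P.T.ATBx 2 came with high values of most other enzymes of the set, a pattern noticed after the values were seen and given without a test. Of the 9 genes, 6 were highest in P.T.ATBx 2 among the 10 P.T.ATBx libraries (Hmox1, Gclc, Gclm, Txnrd1, Srxn1 and Gsr), where 10.8% of all tested rows were. For 5 of these, all but Srxn1, P.T.ATBx 2 was the highest of all 20 libraries, as it was for 4.99% of all rows. Srxn1 was nearly level with the next P.T.ATBx library (25.90 and 25.86 FPKM). Hmox1 is in both counts by choice, because its high value singled out P.T.ATBx 2. Hmox1 was 2.98-fold the median of the other P.T.ATBx libraries there, Gclm 1.25-fold, Gsr 1.14-fold, Txnrd1 1.14-fold, Gclc 1.14-fold and Srxn1 1.10-fold. Nqo1 was 1.07-fold, the fourth highest of its group. The 2 regulators went the other way, with Nfe2l2 at 0.852-fold and Keap1 at 0.820-fold, each the lowest P.T.ATBx library. Of the wider lists described below, P.T.ATBx 2 was the highest of its group for 6 and the lowest for 3 of 31 other NRF2 targets. It was the highest for 0 and the lowest for 4 of 30 other antioxidant enzymes, and the highest for 0 and the lowest for 4 of 9 oxidant-producing genes. Of 13 regulators it was the highest for 1 and the lowest for 0, and of all rows it was the lowest for 13.6%.

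The same library had the lowest sums of macrophage and T cell markers, though not of every marker. Of the 13 macrophage markers it was the lowest of its group for 9 and the highest for 1, Mrc1. Mrc1 was at 24.0 FPKM there and at most 22.1 in the other P.T.ATBx libraries. Of the 9 T cell markers it was the lowest of its group for 6 and the highest for 0. The macrophage marker list (13 of 13 genes tested, none at 0) summed to 2036 FPKM in P.T.ATBx 2, the lowest of its group, where P.T.ATBx ran from 2036 to 3198 and Control from 2168 to 3504. The T cell list (9 of the 11 genes in the table, all tested) summed to 24.1 FPKM in P.T.ATBx 2, with ranges of 24.1 to 61.3 in P.T.ATBx and 31.2 to 79.7 in Control. The red blood cell list was the highest of its group there, at 73.8 FPKM against ranges of 22.8 to 73.8 in P.T.ATBx and 23.6 to 108 in Control, with 3 of its 8 genes in the table tested. The keratinocyte sum was the lowest of its group there as well (4.55 FPKM). Ranked from the top of the 10 P.T.ATBx libraries, P.T.ATBx 2 was 9th for the neutrophil and endothelial sums and 2nd for the fibroblast sum. It was 7th for skeletal muscle and 6th for the adipocyte and epithelial sums. The part of these cell types in the levels of the 9 genes was not tested. P.T.ATBx 2 was not among the 4 libraries that stood apart by summed FPKM.

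**Figure D3:**
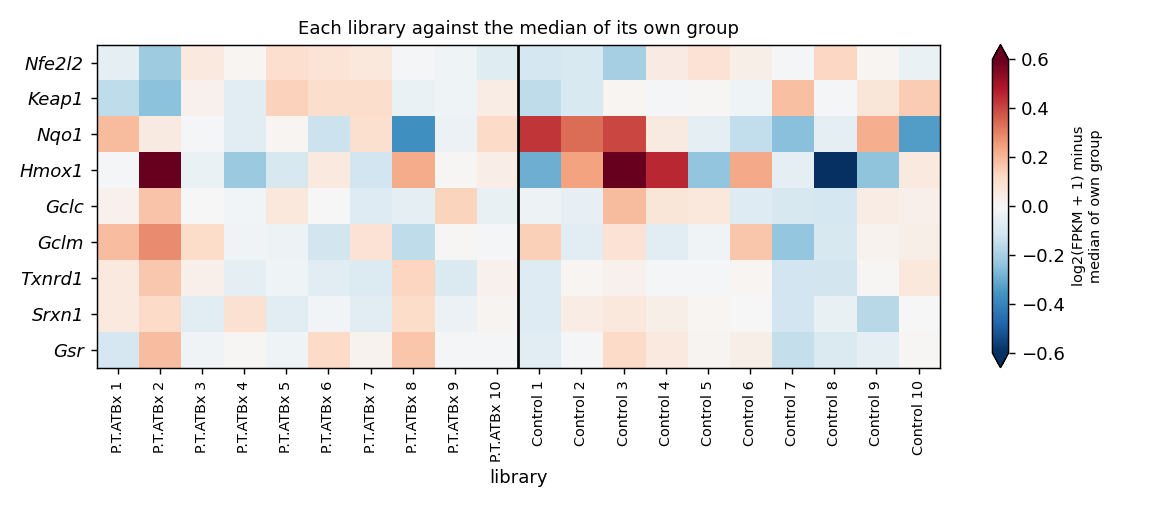
log2(FPKM + 1) of each gene (rows) in each library (columns) minus the median of the library's own group, with red above and blue below and the colours capped at 0.6. The column of P.T.ATBx 2 is red for the enzymes and blue for Nfe2l2 and Keap1. Control 3 also joins the highest Control level of Hmox1 (47.7 FPKM) to the lowest of Nfe2l2 (42.0 FPKM). With Gclc, Srxn1 and Gsr, Control 3 was the highest of its group for 4 of the 9 genes, as it was for 18.1% of all tested rows.

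No pair of members passed the adjusted threshold for a correlation within a group. Pearson's r was computed for the 36 pairs in each group of 10 on the log2 scale, and 0 of the 72 values passed at an adjusted p under 0.05 (permutation test, Benjamini-Hochberg over the 72), with 12 in P.T.ATBx and 6 in Control at an unadjusted p under 0.05. The median r was -0.05 in P.T.ATBx, with 18 of 36 positive, and 0.21 in Control, with 25 of 36 positive. The pair of Nfe2l2 and Keap1 had the highest value, r = 0.86 and rho = 0.77 in P.T.ATBx (n = 10, permutation p = 0.00156 and 0.0120, adjusted p = 0.101 and 0.178), and r = 0.63 without the 2 libraries farthest from the median of Nfe2l2. Srxn1 and Gsr had r = 0.80 and rho = 0.78 in Control (n = 10, permutation p = 0.00523 and 0.0106, adjusted p = 0.101 and 0.178), and r = 0.84 without the 2 farthest for Srxn1. Hmox1 and Gsr had r = 0.77 and rho = 0.77 in Control (n = 10, permutation p = 0.00966 and 0.0124, adjusted p = 0.107 and 0.178), and r = 0.59 without the 2 farthest for Hmox1. Keap1 and Srxn1 ran opposite in P.T.ATBx, with r = -0.78 and rho = -0.79 (n = 10, permutation p = 0.00701 and 0.00825, adjusted p = 0.101 and 0.178), and r = -0.72 without the 2 farthest for Keap1. Nfe2l2 and Hmox1 had the lowest value, r = -0.80 and rho = -0.52 in P.T.ATBx (n = 10, permutation p = 0.0206 and 0.131, adjusted p = 0.140 and 0.419), and r = -0.24 without the 2 farthest for Nfe2l2, so that value rests on those libraries. In Control, Nfe2l2 and Keap1 had r = 0.16 and rho = 0.02 on this scale. Keap1 and Srxn1 had r = -0.31 in Control, and Nfe2l2 and Hmox1 had r = -0.59. In P.T.ATBx, r was 0.48 for Srxn1 and Gsr and 0.68 for Hmox1 and Gsr. These values depended on the scaling: with each library rescaled to 1 sum, 6 pairs passed in P.T.ATBx and 5 in Control, and the median r was 0.40 in P.T.ATBx and 0.59 in Control. On that scale Keap1 and Srxn1 changed sign in P.T.ATBx, to r = 0.21 and rho = 0.14, with r = 0.69 in Control. Nfe2l2 and Hmox1 had r = -0.15 and rho = 0.20 in P.T.ATBx. Nfe2l2 and Keap1 passed in P.T.ATBx, with r = 0.95 and rho = 0.90 (adjusted p = 0.00432 and 0.0257, permutation test). In Control they had r = 0.78 and rho = 0.59 and did not pass (adjusted p = 0.0771 and 0.294, permutation test).

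Keap1 and Nfe2l2 varied with the macrophage and T cell marker scores across the P.T.ATBx libraries. Of 180 relations between the 9 genes and 10 marker scores in the 2 groups, 5 passed at an adjusted p under 0.05 for Pearson's r, and all 5 involved Keap1 or Nfe2l2 in P.T.ATBx. The macrophage and T cell scores themselves ran together there. P.T.ATBx 2 and P.T.ATBx 1 were the lowest of the group in both scores, and P.T.ATBx 5 and P.T.ATBx 6 the highest. Relations with these scores are therefore not separate results. The 180 relations were not recomputed with each library rescaled to 1 sum, so their dependence on the scaling is unknown. Keap1 and the macrophage score had r = 0.96 and rho = 0.98 in P.T.ATBx (n = 10, permutation p = 1e-05, the smallest that these permutations can give, and 2e-05, adjusted p = 0.00180 and 0.00360). Without the 2 libraries farthest from the Keap1 median r was 0.94, without P.T.ATBx 2 it was 0.93, and without P.T.ATBx 1 and 4 it was 0.98. In Control the same relation had r = 0.19 and rho = 0.13 (n = 10, permutation p = 0.578 and 0.733, adjusted p = 0.810 and 0.876), but r = 0.69 without the 2 libraries farthest from the Keap1 median there, so the low Control value rests on those 2 libraries. The difference between the groups was not tested. Keap1 and the T cell score had r = 0.94 and rho = 0.89 in P.T.ATBx (n = 10, permutation p = 0.000130 and 0.00122, adjusted p = 0.00900 and 0.0732), and r = 0.87 without the 2 farthest. In Control they had r = -0.01 and rho = 0.08 (n = 10, permutation p = 0.968 and 0.839, adjusted p = 0.979 and 0.911), and r = 0.30 without the 2 farthest. With the neutrophil score Keap1 had r = 0.57 and rho = 0.47 in P.T.ATBx (n = 10, permutation p = 0.0799 and 0.177, adjusted p = 0.387 and 0.602), and r = 0.41 without the 2 farthest.

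Nfe2l2 had r = 0.93 and rho = 0.84 with the macrophage score in P.T.ATBx (n = 10, permutation p = 0.000270 and 0.00387, adjusted p = 0.0121 and 0.139), and r = 0.77 without the 2 libraries farthest from its median. With the T cell score it had r = 0.90 and rho = 0.90 (n = 10, permutation p = 0.000150 and 0.000770, adjusted p = 0.00900 and 0.0693), and r = 0.85 without the 2 farthest. With the red blood cell score it had r = -0.87 and rho = -0.84 (n = 10, permutation p = 0.000440 and 0.00347, adjusted p = 0.0158 and 0.139), and r = -0.82 without the 2 farthest. With the neutrophil score it had r = 0.40 and rho = 0.10 (n = 10, permutation p = 0.251 and 0.785, adjusted p = 0.662 and 0.890), and r = 0.15 without the 2 farthest. The Spearman values of these Nfe2l2 relations and of Keap1 with the T cell score did not pass the adjusted threshold. In Control, Nfe2l2 and the macrophage score had r = 0.43 and rho = 0.37 (n = 10, permutation p = 0.215 and 0.294, adjusted p = 0.623 and 0.677), and r = 0.46 without the 2 farthest. With the T cell score Nfe2l2 had r = 0.54 and rho = 0.47 in Control (n = 10, permutation p = 0.110 and 0.179, adjusted p = 0.440 and 0.602), and r = 0.62 without the 2 farthest. With the red blood cell score it had r = -0.73 and rho = -0.55 in Control (n = 10, permutation p = 0.0184 and 0.106, adjusted p = 0.216 and 0.561), and r = -0.45 without the 2 farthest. These 3 Control values have the sign of the P.T.ATBx ones, and no difference between the groups was tested. Hmox1, an enzyme that macrophages express strongly, passed with 0 of the 10 marker scores in either group. Its r with the macrophage score was -0.73 and rho -0.27 in P.T.ATBx (n = 10, permutation p = 0.0446 and 0.447, adjusted p = 0.323 and 0.851), and r was 0.05 without the 2 libraries farthest from its median, so that value rests on those libraries.

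**Figure D4:**
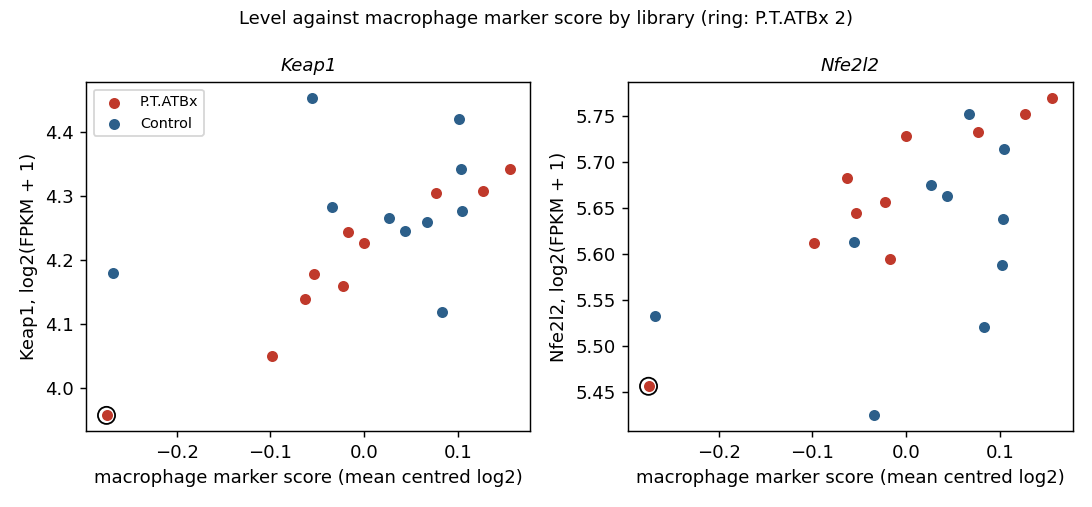
log2(FPKM + 1) of Keap1 (left) and Nfe2l2 (right) against the macrophage marker score, the mean over 13 markers of centred log2(FPKM + 1), with 1 point per library and a ring around P.T.ATBx 2. The P.T.ATBx libraries lie along a rising line, with r = 0.96 for Keap1 and 0.93 for Nfe2l2, and the Control libraries are more scattered, with r = 0.19 (0.69 without the 2 farthest libraries) and 0.43.

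The genes most like each member were ranked by Pearson's r over the 20 libraries after centring within each group, among 12007 other tested genes with assigned names. The values describe these libraries, which share a tissue and a scaling, and carry no p. Nfe2l2 was most like the adhesion gene Cadm1 (r = 0.93), the proton-sensing receptor gene Gpr65 (0.92) and the integrin gene Itga9 (0.91). Keap1 was most like Gbp11 (0.87), Cpeb4 (0.87) and the antiviral gene Oas3 (0.86). Hmox1 was most like the AP-1 subunit gene Fosl1 (0.85), the apelin gene Apln (0.84) and the alarmin gene Il33 (0.84). Srxn1 was most like the cell cycle gene Ccna2 (0.88), the chromatin assembly gene Chaf1b (0.85) and the chaperonin gene Cct2 (0.84). Txnrd1 was most like Pes1 (0.85) and the CTP synthase gene Ctps (0.80), and Gsr was most like Eml1 (0.82), Spdl1 (0.81) and the replication gene Mcm10 (0.79). Nqo1 was most like Arxes2 (0.82), Gnpat (0.81) and C1qtnf7 (0.79). Gclc was most like Ccl27a (0.76), Cass4 (0.76) and the haem transporter gene Slc48a1 (0.74), and Gclm was most like Tmem14c (0.77) and the isoprenoid synthesis genes Pmvk (0.76) and Idi1 (0.75). For each member the best-matching other member ranked lower. Hmox1 was 29th for Gsr, 46th for Gclc and 71st for Txnrd1, and Gsr was 65th for Hmox1 and 224th for Srxn1. The other best matches were far down the ranking. Nqo1 was 921st for Gclm, Nfe2l2 1107th for Keap1, Gclm 1132nd for Nqo1 and Keap1 1152nd for Nfe2l2.

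The wider pathway was described by 5 further lists, in which 1 of 100 tested genes passed the adjusted threshold, against 0.845% of all rows. Among 13 tested regulators and partners of NRF2, 0 passed and the median log2 difference was -0.01, where that of all rows was 0.00. Maff, a small MAF partner, was at 8.38 ± 0.818 FPKM in P.T.ATBx and 9.41 ± 0.667 in Control (SD, n = 10 each, difference -0.15, adjusted p = 0.167, limma). Cul3, the ligase scaffold that works with KEAP1, was at 96.4 ± 3.25 FPKM in P.T.ATBx and 92.7 ± 5.25 in Control (difference 0.06, adjusted p = 0.495, limma), and the ligase adaptor gene Btrc had 0.06 (adjusted p = 0.481, limma). Among 31 tested other NRF2 targets, none passed (0 calls). Positive values were seen for 13 and negative ones for 18, with a median of -0.02. The glucuronosyltransferase gene Ugt1a6a (-0.26, adjusted p = 0.103), the transporter gene Abcc5 (0.16, adjusted p = 0.278) and the pentose phosphate enzyme gene Pgd (-0.15, adjusted p = 0.279, all limma) had the smallest p. Ugt1a6a shares exons with other Ugt1a genes, so the split of its reads is uncertain.

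Among 30 tested other antioxidant enzymes, 1 passed and was higher, Msrb3, which encodes a methionine sulfoxide reductase. It ran from 25.6 through a median of 29.7 to 34.0 FPKM in P.T.ATBx tumours, and from 22.8 through 24.8 to 27.5 FPKM in Control tumours. Every one of the 10 P.T.ATBx values exceeded the Control median, with overlap at the edges (difference 0.25, SE 0.05, adjusted p = 0.00622, limma), and it passed in each of the 33 other fits. The thiol transferase gene Glrx (-0.21, adjusted p = 0.198) and the extracellular superoxide dismutase gene Sod3 (-0.43, adjusted p = 0.277, both limma) followed, with a list median of -0.01. Without Control 2, Glrx passed as well (-0.27, adjusted p = 0.0294, limma).

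No oxidant-producing gene passed of 9 tested. Positive values were seen for 2 and negative ones for 7, with a median of -0.06. Xdh, xanthine dehydrogenase, was at 16.8 ± 3.47 FPKM in P.T.ATBx and 22.6 ± 4.60 in Control (SD, n = 10 each, difference -0.41, adjusted p = 0.132, limma). Each of the 10 P.T.ATBx values was under the Control median. Nos2, the inducible nitric oxide synthase, had -0.57 (adjusted p = 0.322, limma). Of 17 tested genes of haem and iron handling 0 passed, with 10 positive and 7 negative values and a median of 0.01. Cd163, the haemoglobin scavenger receptor of macrophages, was at 0.815 ± 0.295 FPKM in P.T.ATBx and 1.61 ± 1.04 in Control (SD, n = 10 each, difference -0.46, adjusted p = 0.186, limma). The haem synthesis gene Fech had 0.11 (adjusted p = 0.231, limma), and Spic, a transcription factor of red pulp macrophages, had 0.25 (adjusted p = 0.266, limma).

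**Figure D5:**
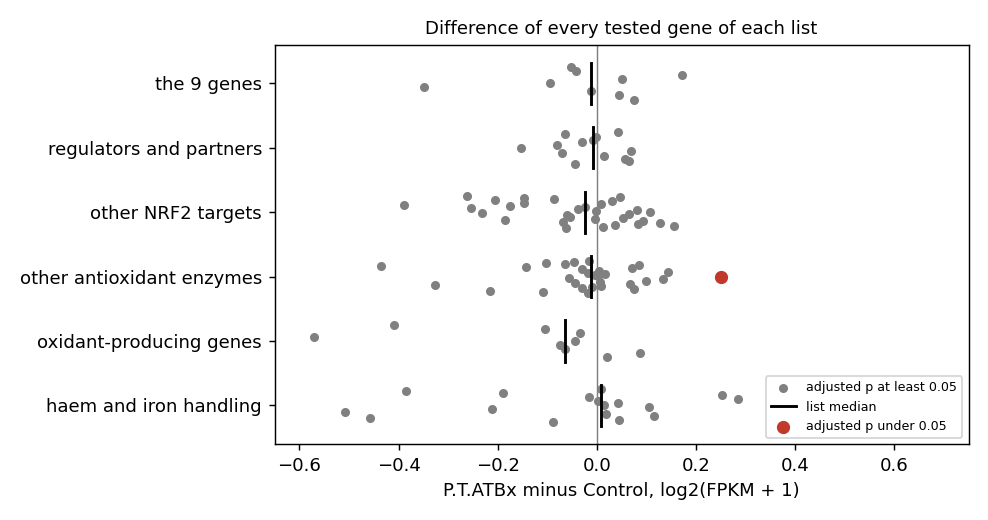
Difference in log2(FPKM + 1), P.T.ATBx less Control, for every tested gene of the 9 and of the 5 further lists, 1 point per gene, with a bar at the list median. The 1 coloured point past the adjusted threshold is Msrb3, and every list median lies between -0.06 and 0.01.

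For the series as a whole, summed FPKM ran from 559717 to 700925 in P.T.ATBx and from 556770 to 752782 in Control, and 15695 to 16080 rows were above 0 in P.T.ATBx and 15527 to 16345 in Control. FPKM gives no counts, so read depth is unknown. The 4 libraries of highest summed FPKM were P.T.ATBx 1, P.T.ATBx 4, Control 1 and Control 3, and without them the 9 genes still gave 0 calls. The labels call the cells cancer cells. Of 9 epithelial markers 6 were tested, 1 with a positive difference and 5 with negative ones, and 0 passed the adjusted threshold. Medians in P.T.ATBx and Control were 1.90 and 2.93 FPKM for Epcam, 4.92 and 7.51 for Krt8, and 6.98 and 9.07 for Krt18. They were 7.49 and 15.2 FPKM for Krt19, 2.49 and 2.92 for Cdh1, and 0.774 and 0.549 for Lgals4, the positive one. Cdx2 was at 0 in every library. The macrophage list was detected in every library at the levels given above, beside the epithelial ones. Gclm, Txnrd1 and Gsr overlap other annotated genes, and reads of such partners cannot be told apart where counting ignored strand.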

How the data were processed

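RNA of MC38 tumours was extracted with an RNeasy kit and made into 20 TruSeq stranded libraries, per the labels' protocols. The authors deposited 1 table of FPKM with 1 column per library. The genome build was mm10, per the submitters' processing notes. The sources used here do not give the aligner, quantification tool, annotation or the use of strand in counting.

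Values were analysed as log2(FPKM + 1). Rows averaging 0.5 FPKM or more across the 20 libraries, 12788 in number, were fitted in limma 3.58.1 (R 4.3.3) with group as the only term and robust, trended moderation. Tests were two-sided, with Benjamini-Hochberg adjustment over all rows and a threshold of 0.05. The script was tested on simulated data. Correlations used 100000 two-sided permutations (numpy 2.4.6). Companion genes were named if past the threshold or among the 3 smallest p of their list, and like genes as the 3 highest r per member; 2 genes so chosen are not reported here. Gene positions and promoters came from RefSeq tables of GRCm38.p6, in which all 9 Entrez numbers matched. The members and lists were chosen with earlier results of these data known.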

Additional observations from a re-analysis of the deposited data

Results flagged for a closer look

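Hmox1 in P.T.ATBx 2 stood far from the other P.T.ATBx libraries, at 60.3 FPKM where the next highest of the group was 23.9 FPKM. Its gap to the nearest library was 0.847 of the range of the group, above Dixon's 95% critical value for 10 samples. Among the 18 groups of values examined, 9 genes in each of 2 groups, it was the only one so placed, and chance places about 1 in 20. With it the P.T.ATBx group averaged 24.2 ± 12.8 FPKM (SD, n = 10), and without it 20.2 ± 1.85 FPKM (SD, n = 9), beside 30.1 ± 8.96 FPKM in Control (SD, n = 10). Control without its own highest library averaged 28.1 ± 6.86 FPKM (SD, n = 9).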

How the results depend on the processing

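No member passed the adjusted threshold (limma, Benjamini-Hochberg) in any of the 33 other fits. These used a pseudocount of 0.1, no filter or a minimum mean of 1 FPKM, quantile, median-of-ratios or TPM scaling, library weights, plain moderation, covariates for marker scores, a replicate block and 20 leave-one-out fits. The 2 fits without the 4 libraries of highest summed FPKM, alone or with P.T.ATBx 2, were chosen after seeing the data.

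Calls over all rows, 108 as reported (59 higher, 49 lower), were 49 (20 higher, 29 lower) with TPM scaling and 306 (154 higher, 152 lower) with library weights. Without the 4 libraries they were 67 (31 higher), and 75 were lower with the macrophage score as a covariate. Leaving out 1 library gave 69 (without P.T.ATBx 4) to 193 (without Control 1), with 38 to 104 higher and 31 to 89 lower. Other antioxidant enzymes gave 2 calls with quantile scaling, and 1 to 2 with 1 library left out. With TPM scaling 6 member pairs in P.T.ATBx and 5 in Control passed, against 0 in each. TPM scaling divides each library by its summed FPKM. Of that sum the RNAs Rpph1 and Rmrp held 9.02% to 17.2% in P.T.ATBx and 7.75% to 20.5% in Control. Their part in these correlations, and the cause of the change, were not tested.

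Gsr changed sign, to 0.018 without the 4 libraries, and lay between -0.029 and 0.0024 with 1 library left out. Hmox1 was -0.50 without P.T.ATBx 2, -0.27 when Control 3 was left out, and -0.24 without the 4 libraries. Gclm was 0.02 without P.T.ATBx 2 or without Control 7, and 0.03 without P.T.ATBx 1. Nfe2l2 was 0.03 without Control 3 and 0.02 without the 4 libraries. With the replicate block, oxidant-producing genes gave 1 call, Xdh (adjusted p = 0.0172), and Keap1 had an adjusted p of 0.232 (both limma). Same-numbered samples correlated from -0.31 to 0.39, with 5 of 10 pairs above 0.1, and 4 of 10 P.T.ATBx libraries correlated best with their own number. The labels give the numbers no shared source, so they were not used to pair samples. The block gave 124 calls over all rows and changed no call among the 9 genes. Read depth is unknown, so precision at low levels such as that of Nqo1 cannot be judged from counts.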
